A study of Mus musculus with 6 samples.

Results

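The messages described here encode the machinery that brings proteins into mitochondria and shapes the inner membrane: 34 genes of the TOM and TIM translocases, the chaperones of the intermembrane space, the import motor, the SAM complex with the metaxins, and MICOS with small CHCH proteins. They were taken from a list of gene symbols set by protein function, with no use of measured values, and all 34 were found among the 51912 genes matched and passed the low-count filter that left 13231 genes. Most mitochondrial proteins are encoded in the nucleus, made on cytosolic ribosomes and passed through the TOM pore of the outer membrane. From there, TIM23 with its ATP-driven motor takes precursors with a presequence to the matrix, TIM22 inserts carrier proteins, SAM inserts beta-barrel proteins, and a disulfide relay traps small cysteine-rich proteins between the membranes. MICOS holds the junctions where cristae, the folds of the inner membrane, meet its boundary. Embryonic stem cells are known for small mitochondria with few cristae.

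Poly(A) RNA was measured in E14, an established line of mouse embryonic stem cells grown on gelatin with serum and leukemia inhibitory factor, at successive steps of RAPIDASH, a tag-free ribosome purification. All cells received cycloheximide, which holds ribosomes on messages, shortly before harvest. The 3 pellet libraries hold RNA taken directly from material spun through a sucrose cushion, and the 3 eluate libraries hold RNA from such material after chromatography on a resin charged with cysteine, so the comparison asks what the resin step added to or removed from the message pool. The libraries of each kind are numbered 1 to 3 with no word on whether they are separate cultures, so p-values measure only the spread between these samples, which may be technical, and everything comes from 1 cell line. Libraries held 7.84e+06 to 1.16e+07 estimated counts. All 10 stem cell markers checked stood above 1 TPM in every library, with summed levels of 11557 to 12952 TPM in the pellets and 15355 to 15416 TPM in the eluates, a difference whose part in the results was not tested. Of 10 markers of primitive endoderm, mesoderm, neural cells and fibroblasts, 3 did so, and the summed level of each of these 4 lists stayed at or under 5.28 TPM, with the fibroblast marker Postn at 0 throughout. TPM, the length-corrected abundance scaled to a common total, is used for levels. A change is the log2 ratio of eluate to pellet fitted to the counts, given ± SE. Adjusted p-values come from the quasi-likelihood test of edgeR over all genes, with a threshold of 0.05. A value is a share of its library, so a gain of one message cannot be told apart from a loss of others, nor, in bulk samples, fewer cells of a type from less RNA per cell.

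Of the 34 messages, 20 rose in the eluates, 3 fell and 11 were not called, among them Mtx1, which could not be measured here. Among all 13231 genes the test called 24.5% higher (3241) and 28.2% lower (3736), 52.7% in all. With limma on log2(TPM + 0.1), 15 of the 34 messages were higher and 3 lower, against 14.3% and 26.7% of all genes. The median change over the 34 messages, including Mtx1, was 0.31 on the log2 scale, against 0.0035 over all genes. CPM, counts scaled to the library total, were adjusted for this comparison by the TMM factors of edgeR. In CPM, the 3 eluates lay wholly above the 3 pellets for 21 messages and wholly below for 4. Of all genes, 29.1% had all eluates above, 31.2% all below, and 60.3% no overlap in either direction. The direction went with coding length: of the 28 members with a coding sequence of up to 1200 nt, 20 rose and 0 fell, and of the 5 longer ones, leaving out Mtx1, 0 rose and 3 fell. Mtx1 was placed among the longer ones by a matched transcript with 1386 nt of coding sequence. The authors' deposited table lists it as higher, at 0.40. Among all tested genes with coding sequences up to 1200 nt 39.0% rose and 14.4% fell, and among longer ones 15.2% rose and 40.3% fell. With the smooth trend in GC content and length of each library removed, a fit already used on these data before, 14 members were higher and 3 lower (19.0% and 15.8% of all genes), with a median of 0.13. Of the 20 that rose, 11 were still called higher there, along with Tomm70a, Samm50 and Mtx2. The 3 lower ones were Hspa9, Immt and Timm44. That fit sets the values called detrended below. Fits with other trends removed are also given, and the part of base composition and length in the changes was itself not tested. With the length trend alone removed, 14 members were higher and 6 lower (3498 and 2972 of all genes). Tomm7, Tomm22, Timm10, Timm23, Timm50, Timmdc1 and Chchd2 were then no longer called. Samm50 was newly higher, and Timm44, Dnajc19 and Chchd3 newly lower. With the GC trend alone removed, 21 were higher and 3 lower (2949 and 2502 of all genes). Tomm40, Tomm70a (at 0.081, with the opposite sign), Timm50, Pam16 and Chchd2 were then not called. Tomm5, Timm9, Timm21, Dnajc19 and Mtx2 were newly higher, and Timm44 newly lower.

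**Figure D1:**
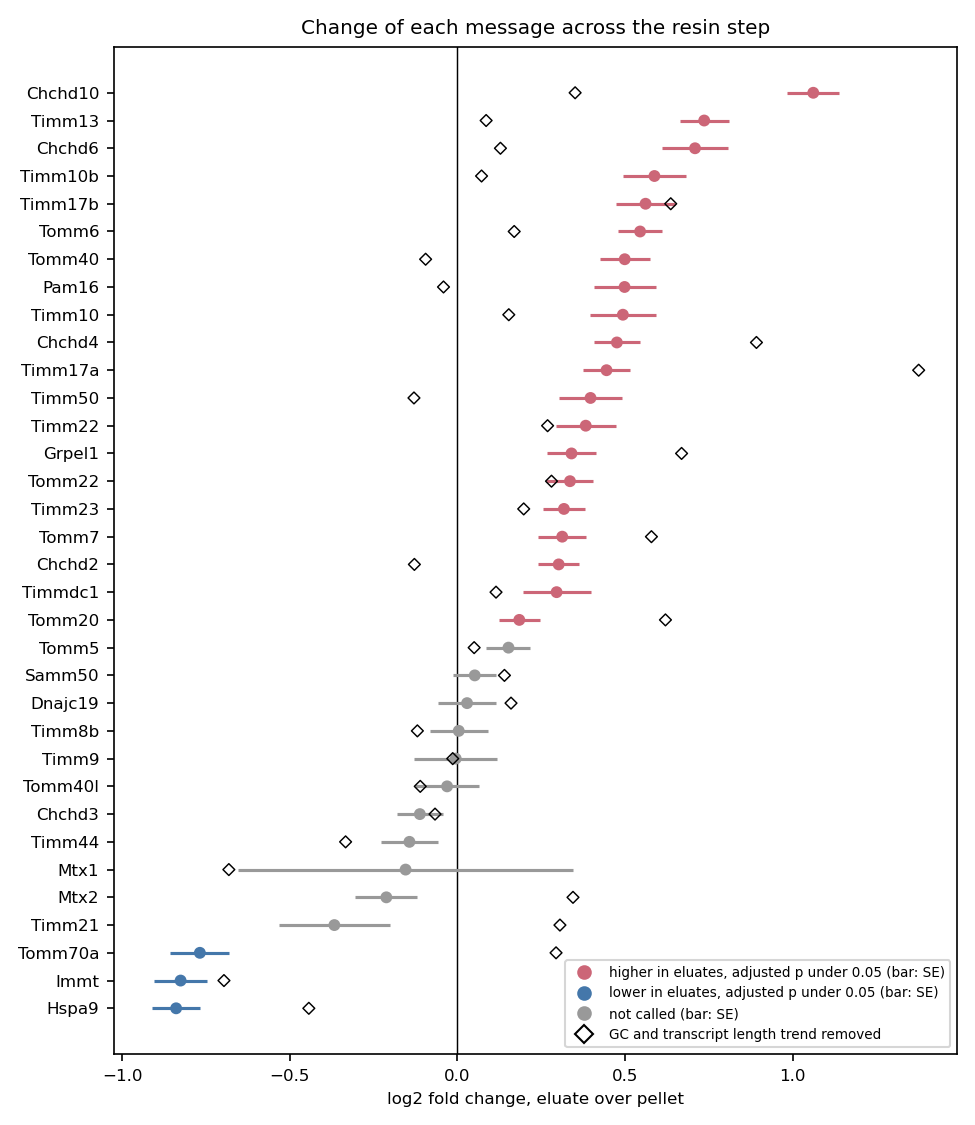
Log2 fold change of eluate over pellet (points, with bars of ± 1 SE, 3 libraries per group) for the 34 messages, ordered by size and coloured by the edgeR call, with open diamonds for the detrended change. Chchd10 stands highest at 1.06, and the 3 lower messages, Tomm70a, Immt and Hspa9, stand apart at the bottom; most diamonds of the higher messages lie nearer 0, and those of Tomm7, Tomm20, Chchd4, Timm17a, Timm17b and Grpel1 lie further out.

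The 5 small TIM chaperones show the spread within one protein family. They encode proteins of similar length and structure, and their changes ran from about 0 to 0.74, in the order of their GC content, with Timm9 and Timm8b within their errors of each other. The coding sequences of 4 of them are printed for that reason, from the most abundant matched transcript of each gene, from the start codon, with G and C at the third position of each codon in capitals. Sequences were read from the GENCODE transcripts by identifier, and the coding span in the genome is given in GRCm38 coordinates. Timm9 (chr12:71123552-71126371, minus strand) has G or C at the third position in 48.9% of codons. Timm8b (chr9:50603956-50605100, plus strand) has 60.7%. Timm10 (chr2:84827643-84829991, plus strand) has 74.7%. Timm13 (chr10:80900161-80900743, minus strand) has 84.4%.
Timm9: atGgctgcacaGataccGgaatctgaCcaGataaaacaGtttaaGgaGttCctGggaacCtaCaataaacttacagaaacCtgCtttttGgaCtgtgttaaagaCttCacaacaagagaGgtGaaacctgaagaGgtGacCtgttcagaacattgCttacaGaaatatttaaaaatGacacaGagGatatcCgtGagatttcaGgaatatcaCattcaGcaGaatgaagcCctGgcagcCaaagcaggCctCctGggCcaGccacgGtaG
Timm8b: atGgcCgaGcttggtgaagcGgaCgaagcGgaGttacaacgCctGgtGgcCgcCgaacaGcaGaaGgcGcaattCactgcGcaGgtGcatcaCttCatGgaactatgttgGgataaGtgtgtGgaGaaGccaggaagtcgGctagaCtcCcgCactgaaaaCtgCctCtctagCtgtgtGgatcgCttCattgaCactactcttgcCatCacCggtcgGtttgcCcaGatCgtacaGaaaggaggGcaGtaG
Timm10: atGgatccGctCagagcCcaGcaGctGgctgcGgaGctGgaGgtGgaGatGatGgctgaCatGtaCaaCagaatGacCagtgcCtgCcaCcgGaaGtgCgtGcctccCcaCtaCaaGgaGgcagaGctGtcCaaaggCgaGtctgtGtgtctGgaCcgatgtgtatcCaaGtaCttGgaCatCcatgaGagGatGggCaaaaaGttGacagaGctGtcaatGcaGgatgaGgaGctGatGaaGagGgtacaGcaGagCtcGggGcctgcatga
Timm13: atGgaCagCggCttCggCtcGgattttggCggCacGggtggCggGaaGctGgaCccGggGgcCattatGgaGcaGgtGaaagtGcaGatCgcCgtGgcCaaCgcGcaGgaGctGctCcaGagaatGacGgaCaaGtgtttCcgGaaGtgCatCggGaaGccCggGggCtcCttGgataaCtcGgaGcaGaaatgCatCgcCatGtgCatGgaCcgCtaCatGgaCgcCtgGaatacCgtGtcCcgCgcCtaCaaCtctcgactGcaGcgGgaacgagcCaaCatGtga

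These small proteins ferry hydrophobic precursors across the intermembrane space, Timm9 with Timm10 for carrier proteins, and Tim13 with a Tim8 protein for other inner membrane proteins, while Timm10b sits on the TIM22 complex. Timm13 held 215, 185 and 189 TPM across pellets 1, 2 and 3, and 288, 296 and 288 TPM across eluates 1, 2 and 3, with every eluate above every pellet. It rose by 0.74 ± 0.073 (adjusted p = 9.74e-07). Timm10b, which shares 50.9% of its 31-base words with other genes, chiefly Gm45799, rose by 0.59 ± 0.095 (adjusted p = 8.93e-05), and Timm10 by 0.49 ± 0.10 (adjusted p = 5.84e-04), both with groups apart. Timm8b, at 384 ± 19.5 TPM in the pellets and 371 ± 15.2 TPM in the eluates, stood at a log2 change of 0.0038 ± 0.087, with a 95% interval from limma voom of -0.19 to 0.21. Timm9, at 50.1 ± 7.87 TPM in the pellets and 48.7 ± 0.839 TPM in the eluates, stood at -0.0052 ± 0.12, with an interval of -0.27 to 0.28. Over the whole message, GC content was 47.3% in Timm9, 49.8% in Timm8b, 52.5% in Timm10, 55.9% in Timm10b and 59.3% in Timm13. The 3 richest in G and C rose and the other two were not called. Detrended, the 5 messages lay between -0.12 (Timm8b) and 0.15 (Timm10), and none of them was called. With the GC trend alone removed, Timm9 (0.29), Timm10 (0.39), Timm10b (0.30) and Timm13 (0.32) were called higher. Timm8b, at 0.095, was not called there. With the trends in GC and coding length removed, Timm8b was called lower, at -0.27, and the others were not called. The part of GC in this spread was not tested.

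Partners within this family differed in their ratios between the groups. The log2 TPM ratio of Timm13 to Timm8b was -0.76, -1.06 and -1.09 across pellets 1, 2 and 3, and -0.30, -0.38 and -0.37 across eluates 1, 2 and 3. The eluates all lay above the pellets. The ratio of Timm10 to Timm9, which form a hexamer together, had means of 0.31 in the pellets and 0.73 in the eluates, also without overlap. These partners, and the further pairs of partners below, were chosen after their values were seen, so no test of their ratios is given. Chchd4, the oxidoreductase that folds the small TIM proteins by forming their disulfides, rose by 0.48 ± 0.069 (adjusted p = 3.31e-05) at a low level, 29.0 ± 2.93 TPM in the pellets and 39.0 ± 0.657 TPM in the eluates. Its message is long for its coding part, 3472 nt with 420.0 nt of coding sequence, and its detrended change was larger, 0.89. With the trends in GC and coding length removed instead, it was 0.52.

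**Figure D2:**
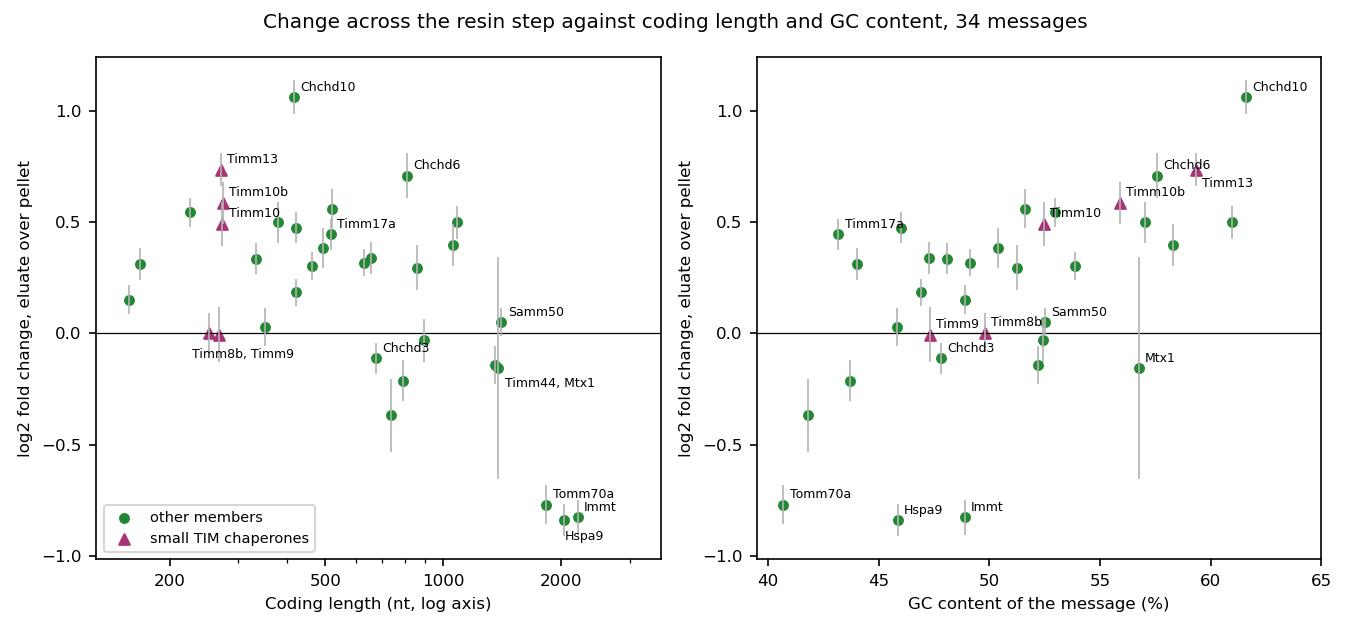
Log2 fold change of eluate over pellet (points, with bars of ± 1 SE) against coding length in nt on a log axis (left) and against GC content of the message in percent (right), for the 34 messages, with the 5 small TIM chaperones as triangles. The triangles stand above each other on the left and climb with GC content on the right, and the 3 messages with the longest coding sequences lie lowest in both panels.

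Of the 8 messages of the outer membrane TOM complex, 5 rose, 1 fell and 2 were not called, with a median of 0.25. Its small subunits steady the pore. Tomm5, the most abundant of them, held 562, 523 and 544 TPM across pellets 1, 2 and 3, and 586, 585 and 573 TPM across eluates 1, 2 and 3. The eluates were all slightly above the pellets, and the change of 0.15 ± 0.066 did not pass the test (adjusted p = 0.0627); it passed with upper-quartile scaling (0.00509) and with the GC trend alone removed (2.63e-05). Tomm6 held 324, 282 and 276 TPM across pellets 1, 2 and 3, and 381, 396 and 417 TPM across eluates 1, 2 and 3. All eluates were above all pellets, and Tomm6 rose by 0.55 ± 0.066 (adjusted p = 5.94e-06), although 87.1% of the 31-base words of its main transcript also occur in transcripts of other genes, chiefly a predicted gene, Gm21981. Tomm7 rose by 0.31 ± 0.071 (adjusted p = 0.00168).

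The receptors that first bind precursors moved in both directions. Tomm22, the central receptor, rose by 0.34 ± 0.070 (adjusted p = 8.38e-04). Tomm20, which binds presequences, rose by 0.18 ± 0.060 (adjusted p = 0.0175), a call that was lost in TPM (adjusted p = 0.159 with limma), without pellet 3 (0.0612) and without eluate 2 (0.0976). Tomm70a, the receptor that takes carrier precursors from cytosolic chaperones, held 55.5, 58.6 and 62.4 TPM across pellets 1, 2 and 3, and 35.7, 33.6 and 34.7 TPM across eluates 1, 2 and 3. Every eluate was below every pellet, and Tomm70a fell by 0.77 ± 0.088 on the log2 scale (adjusted p = 6.31e-06). At 40.7% it has the lowest GC content of the 34 messages, with 1836 nt of coding sequence in a transcript of 5964 nt. Detrended, its sign turned and it was called higher, at 0.29, so its direction is relative to the trend that is taken out.

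Tomm40, the beta-barrel that forms the pore, rose by 0.50 ± 0.075 (adjusted p = 4.58e-05) with 154 ± 23.4 TPM in the pellets and 196 ± 6.29 TPM in the eluates; detrended, it stood at -0.10 and was not called. Its much rarer paralog Tomm40l, at 13.9 ± 1.66 TPM in the pellets and 12.7 ± 0.921 TPM in the eluates, stood at a change of -0.031 ± 0.10 (adjusted p = 0.809, 95% interval -0.24 to 0.17). Relative to Tomm40, Tomm40l stood at log2 TPM ratios of -3.50, -3.37 and -3.49 across pellets 1, 2 and 3, and -4.03, -3.81 and -3.97 across eluates 1, 2 and 3, with no overlap. By TPM the order within the complex was Tomm5, Tomm6, Tomm7, Tomm20, Tomm22, Tomm40, Tomm70a and Tomm40l in the pellets. In the pellets Tomm20 stood above Tomm40, and Tomm22 overlapped both. In the eluates Tomm22 stood above Tomm20. Their log2 ratio, Tomm22 to Tomm20, still overlapped between the groups, with means of -0.037 in the pellets and 0.12 in the eluates.

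**Figure D3:**
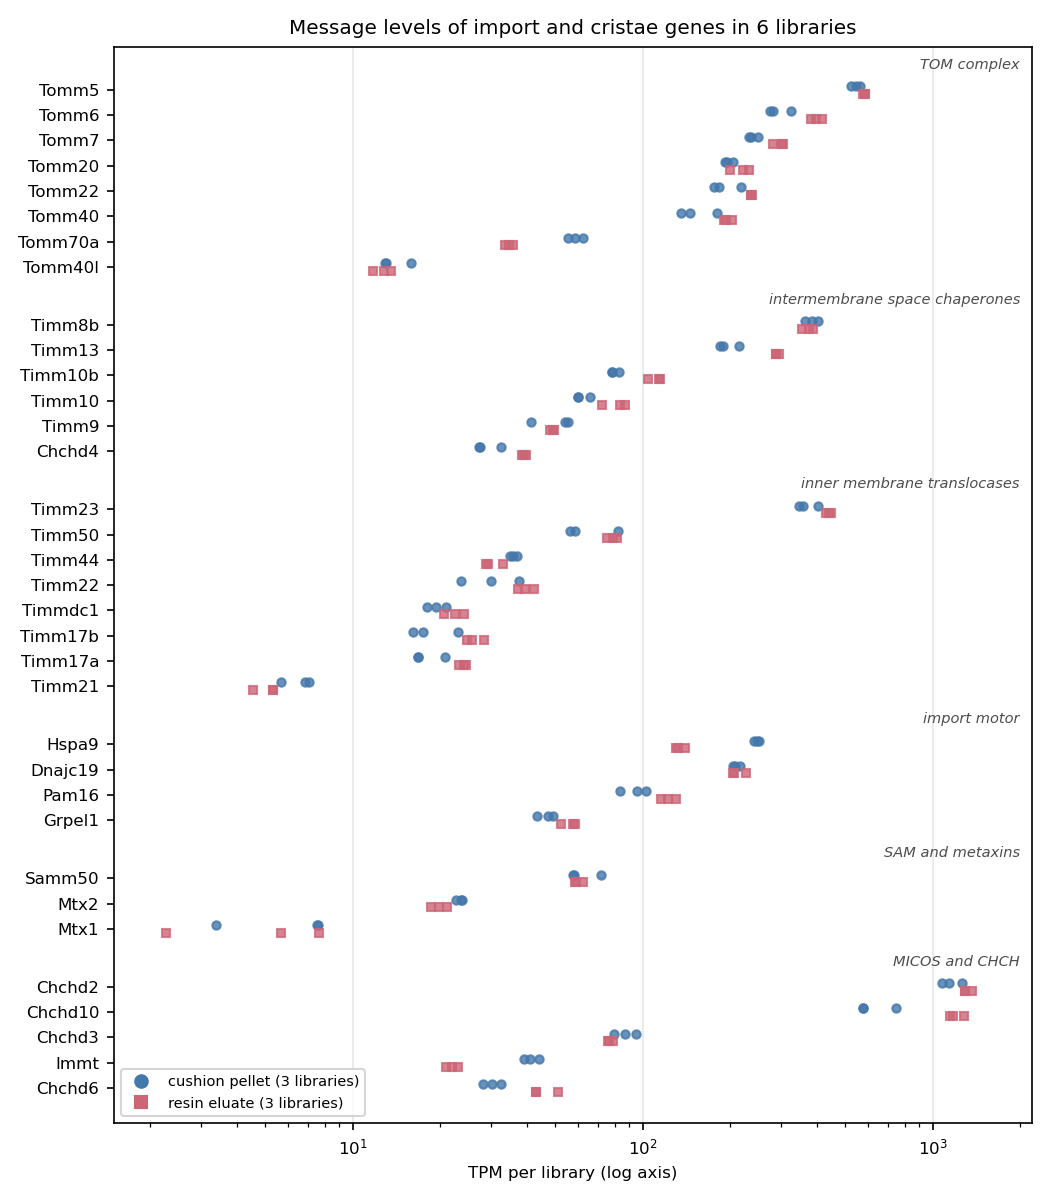
TPM on a log axis for the 34 messages by role, with each of the 3 pellets as a circle and each of the 3 eluates as a square. Leaving out Mtx1, of which only a remainder was matched, the levels run from Timm21 and Tomm40l at the low end to Chchd10 and Chchd2 at the high end, and the eluates stand clearly to the right of the pellets for Chchd10 and to the left for Hspa9, Immt and Tomm70a.

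At the inner membrane, 6 of 8 translocase messages rose, 0 fell and 2 were not called, with a median of 0.35. Timm23, which forms the presequence channel, held 403, 357 and 347 TPM across pellets 1, 2 and 3, and 429, 439 and 447 TPM across eluates 1, 2 and 3. The eluates were above the pellets, and it rose by 0.32 ± 0.062 (adjusted p = 4.47e-04). Of the 31-base words of its main transcript 92.7% occur in other genes, chiefly the predicted gene Gm10273, so reads could be exchanged between them. Timm50, the receptor of the channel, rose by 0.40 ± 0.093 (adjusted p = 0.00213), and the log2 TPM ratio of Timm23 to Timm50 overlapped between the groups at 2.51 in the pellets and 2.48 in the eluates. Timm50 was not called in TPM (adjusted p = 0.116 with limma). Detrended, it was at -0.13, the opposite sign, and not called.

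Timm17a and Timm17b are alternative partners of Timm23 in the channel. Timm17a rose by 0.44 ± 0.070 (adjusted p = 6.85e-05), with 18.1 ± 2.32 TPM in the pellets and 24.0 ± 0.672 TPM in the eluates. Timm17b rose by 0.56 ± 0.088 (adjusted p = 6.98e-05), with 18.9 ± 3.68 TPM in the pellets and 26.3 ± 1.83 TPM in the eluates. The log2 ratio of Timm17b to Timm17a was 0.15, -0.054 and 0.065 across pellets 1, 2 and 3, and 0.10, 0.075 and 0.23 across eluates 1, 2 and 3, so the groups overlapped (two-sided exact permutation p = 0.4). Their matched transcripts are long, 7280.0 nt and 3959 nt, with only 516 and 519 nt of coding sequence. The detrended values, 1.38 and 0.64, were higher than the plain ones. With the trends in GC and coding length removed instead, the values were 0.76 and 0.21, the second below its plain value.

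Timm22, the carrier translocase, rose by 0.38 ± 0.089 (adjusted p = 0.00196), and missed the threshold in TPM (adjusted p = 0.0557 with limma) and from its most abundant transcript alone (0.0733). Timmdc1, a TIM17-family protein that acts in complex I assembly, was called at 0.30 ± 0.10 (adjusted p = 0.0221), but not with DESeq2 (adjusted p = 0.0502), not without pellet 3, eluate 1 or eluate 3 (adjusted p = 0.0857, 0.0994 and 0.0526), and not in the authors' deposited table. Timm44, which ties the motor to the channel, stood at -0.14 ± 0.086 (adjusted p = 0.176, 95% interval -0.33 to 0.039) and was called lower, at -0.33, once detrended. Timm21, which links TIM23 to TOM and the respiratory chain, was the least abundant TIM message of the list, at 6.52 ± 0.752 TPM in the pellets and 5.03 ± 0.451 TPM in the eluates. Its change of -0.37 ± 0.16 missed the threshold (adjusted p = 0.0728) and passed it without pellet 1, at -0.53 (adjusted p = 0.00257). With the GC trend alone removed it was called higher, at 0.40 (adjusted p = 0.0215), so no direction is given for it.

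In the import motor, 2 of 4 messages rose, 1 fell and 1 was not called. Hspa9, the mitochondrial Hsp70 that pulls precursors inward and the most abundant motor message in the pellets, held 247, 242 and 251 TPM across pellets 1, 2 and 3, and 140.3, 132 and 130.1 TPM across eluates 1, 2 and 3. All eluates lay below all pellets. Hspa9 fell by 0.84 ± 0.072 on the log2 scale, to 0.559 times its pellet level (adjusted p = 2.86e-07), and stayed lower, at -0.44, once detrended. Its nucleotide exchange factor Grpel1 rose by 0.34 ± 0.072 (adjusted p = 9.00e-04). The log2 TPM ratio of Grpel1 to Hspa9 was -2.33, -2.36 and -2.54 across pellets 1, 2 and 3, and -1.26, -1.33 and -1.18 across eluates 1, 2 and 3. By TPM, Hspa9 stood above Dnajc19 in every pellet and below it in every eluate.

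Pam16 and Dnajc19 encode a J-like protein and a J-domain protein that work together on Hspa9, and their short messages moved differently. Their coding starts are printed because they share a length class but not a base composition. The first 300 bases of each are shown as above, with G and C at the third position of each codon in capitals: Pam16 (chr16:4616547-4624853 in GRCm38, minus strand, 378 nt) has 67% there and Dnajc19 (chr3:34077454-34081188, minus strand, 351 nt) has 35%.
Pam16: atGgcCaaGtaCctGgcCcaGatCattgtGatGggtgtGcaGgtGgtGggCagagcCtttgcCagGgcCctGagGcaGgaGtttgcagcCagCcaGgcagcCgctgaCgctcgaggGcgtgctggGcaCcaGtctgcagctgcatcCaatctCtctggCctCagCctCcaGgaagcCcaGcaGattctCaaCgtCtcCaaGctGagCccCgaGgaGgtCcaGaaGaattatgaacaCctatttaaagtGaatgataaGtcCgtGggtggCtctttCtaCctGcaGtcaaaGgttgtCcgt
Dnajc19: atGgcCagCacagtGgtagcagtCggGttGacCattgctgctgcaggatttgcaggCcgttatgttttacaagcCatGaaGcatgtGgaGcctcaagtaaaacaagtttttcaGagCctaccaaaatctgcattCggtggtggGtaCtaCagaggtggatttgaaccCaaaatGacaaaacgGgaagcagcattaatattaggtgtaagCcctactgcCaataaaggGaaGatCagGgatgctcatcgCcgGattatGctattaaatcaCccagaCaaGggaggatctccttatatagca

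Pam16 held 102, 95.6 and 83.4 TPM across pellets 1, 2 and 3, and 116, 122 and 129.9 TPM across eluates 1, 2 and 3. Its eluates lay above its pellets, and it rose by 0.50 ± 0.093 (adjusted p = 3.06e-04). Of its 31-base words 89.0% occur in other genes, chiefly Gm9803, and detrended it was at -0.042 and not called. Dnajc19 held 204, 207 and 217 TPM across pellets 1, 2 and 3, and 204, 206 and 226 TPM across eluates 1, 2 and 3. Its groups overlapped, with a change of 0.029 ± 0.086 (adjusted p = 0.805) and a 95% interval of -0.16 to 0.23. It was called higher with the GC trend alone removed (0.46, adjusted p = 2.47e-06) and lower with the length trend alone removed (-0.22, adjusted p = 0.0427). Relative to Dnajc19, Pam16 stood at log2 TPM ratios of -1.0, -1.12 and -1.38 across pellets 1, 2 and 3, and -0.81, -0.75 and -0.80 across eluates 1, 2 and 3. GC content was 57.0% in Pam16 and 45.8% in Dnajc19.

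None of the 3 messages of SAM and the metaxins was called. Samm50, which inserts beta-barrel proteins into the outer membrane, was at 62.3 ± 8.14 TPM in the pellets and 59.9 ± 2.16 TPM in the eluates, with a change of 0.052 ± 0.064 (adjusted p = 0.529) and a 95% interval of -0.083 to 0.19. It was called higher once detrended (0.14, adjusted p = 0.0331) and with the length trend alone removed (0.38, adjusted p = 2.03e-04). Mtx2, a metaxin of the SAM complex, held 23.6, 23.9 and 22.7 TPM across pellets 1, 2 and 3, and 18.6, 19.9 and 21.2 TPM across eluates 1, 2 and 3. Its eluates lay below its pellets in TPM, but the change of -0.21 ± 0.093 missed the threshold (adjusted p = 0.0653). It passed without pellet 1, at -0.28 (adjusted p = 0.00363), and was called higher, at 0.34, once detrended, so no direction is given for it. Mtx1 could not be measured with the transcripts matched here: they held 0.0809 times the mean count listed for it in the authors' deposited table. The value of -0.15 ± 0.50 from that remainder carries no finding, and the authors' deposited table lists Mtx1 at 0.40 with an SE of 0.12 and an adjusted p of 0.00306.

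Among MICOS and the CHCH proteins, 3 messages rose, 1 fell and 1 was not called. Immt, or mitofilin, the membrane-bending core of MICOS, held 44.0, 40.7 and 39.0 TPM across pellets 1, 2 and 3, and 23.1, 22 and 21.0 TPM across eluates 1, 2 and 3. Every eluate was below every pellet. It fell by 0.83 ± 0.079 on the log2 scale (adjusted p = 6.92e-07) and stayed lower, at -0.70, once detrended. Chchd3, which binds Immt, was at 86.9 ± 7.53 TPM in the pellets and 77.1 ± 1.68 TPM in the eluates, with a change of -0.11 ± 0.068 (adjusted p = 0.181, 95% interval -0.25 to 0.029). Chchd6, the paralog of Chchd3 in MICOS, held 32.4, 30.2 and 28.2 TPM across pellets 1, 2 and 3, and 42.7, 42.7 and 51.1 TPM across eluates 1, 2 and 3. It rose by 0.71 ± 0.10 (adjusted p = 2.47e-05), with groups apart, and was at 0.13 and not called once detrended. Relative to Chchd3, Immt stood at mean log2 TPM ratios of -1.07 in the pellets and -1.80 in the eluates, with no overlap. Chchd6 relative to Chchd3 stood at -1.54, -1.40 and -1.62 across pellets 1, 2 and 3, and -0.89, -0.83 and -0.58 across eluates 1, 2 and 3. By mean TPM, Immt stood above Chchd6 in the pellets and below it in the eluates.

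Chchd2 and Chchd10 encode twin CHCH proteins of the intermembrane space that bind each other, and were the most abundant of the 34 messages. Chchd2 held 1267, 1073 and 1134 TPM across pellets 1, 2 and 3, and 1295, 1288 and 1362 TPM across eluates 1, 2 and 3, with the eluates above the pellets. It rose by 0.30 ± 0.062 (adjusted p = 7.20e-04) and was at -0.13, with the opposite sign and not called, once detrended. It was called lower there with the replicate number as a block (adjusted p = 0.0432), and with the trends in GC and coding length removed (-0.21, adjusted p = 0.00289). In TPM it missed the threshold (adjusted p = 0.0673 with limma). Its main transcript shares 53.8% of its 31-base words with other genes. Chchd10 held 750.0, 575 and 574 TPM across pellets 1, 2 and 3, and 1174, 1152 and 1285 TPM across eluates 1, 2 and 3, and its eluates were 2.09 times its pellets by the fit, a rise of 1.06 ± 0.078 (adjusted p = 9.71e-08). It rose further than any other of the 34 messages and has the highest GC content among them, 61.6%. Detrended, it remained called at 0.35. The log2 TPM ratio of Chchd10 to Chchd2 was -0.76, -0.90 and -0.98 across pellets 1, 2 and 3, and -0.14, -0.16 and -0.084 across eluates 1, 2 and 3. Chchd2 stayed above Chchd10 in every library, by less in the eluates. Together they took 0.179% ± 0.020 of all TPM in the pellets and 0.252% ± 0.011 in the eluates (SD, n = 3).

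All 34 messages together took 0.615%, 0.543% and 0.551% of TPM across pellets 1, 2 and 3, and 0.677%, 0.677% and 0.702% across eluates 1, 2 and 3. Pellet 1 was the highest of the pellets and still below every eluate. Without Chchd2 and Chchd10 the shares were 0.390% ± 0.020 and 0.434% ± 0.0033. The 3 falling messages, Hspa9, Immt and Tomm70a, took 0.0347% ± 5.76e-04 in the pellets and 0.0191% ± 7.23e-04 in the eluates. In the same libraries the mitochondrially encoded messages, which are translated inside mitochondria, took 4.36% to 7.20% of counts in the pellets and 2.21% to 2.67% in the eluates. Leaving these genes out of the fit changed the call of none of the 34 messages.

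The paralog ratios are free of scaling between libraries. Of 7 pairs, 4 had groups that did not overlap: Chchd6 to Chchd3 and Chchd10 to Chchd2 were 0.75 higher in the eluates, and Tomm40l to Tomm40 and Grpel2 to Grpel1 were lower, at differences of -0.49 and -0.30. The last was -0.16 without pellet 3. Each of these 4 had the smallest two-sided exact permutation p that 3 libraries against 3 allow, 0.1, and 0.175 after Benjamini-Hochberg adjustment over the 7 pairs, so the design could not reach the threshold. Timm17b to Timm17a, Timm10b to Timm10 and Mtx2 to Mtx1 overlapped, and Mtx1 is limited as above. In each of the 4 pairs with groups apart, the ratio moved toward the member that is richer in GC. For Grpel1 and Grpel2 the GC contents were close, at 47.3% and 45.8%. Timm17b (51.6%) and Timm17a (43.2%) differed more in GC, yet their ratio overlapped between the groups. So did that of Timm10b (55.9%) and Timm10 (52.5%). The part of GC in these ratios was not tested.

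**Figure D4:**
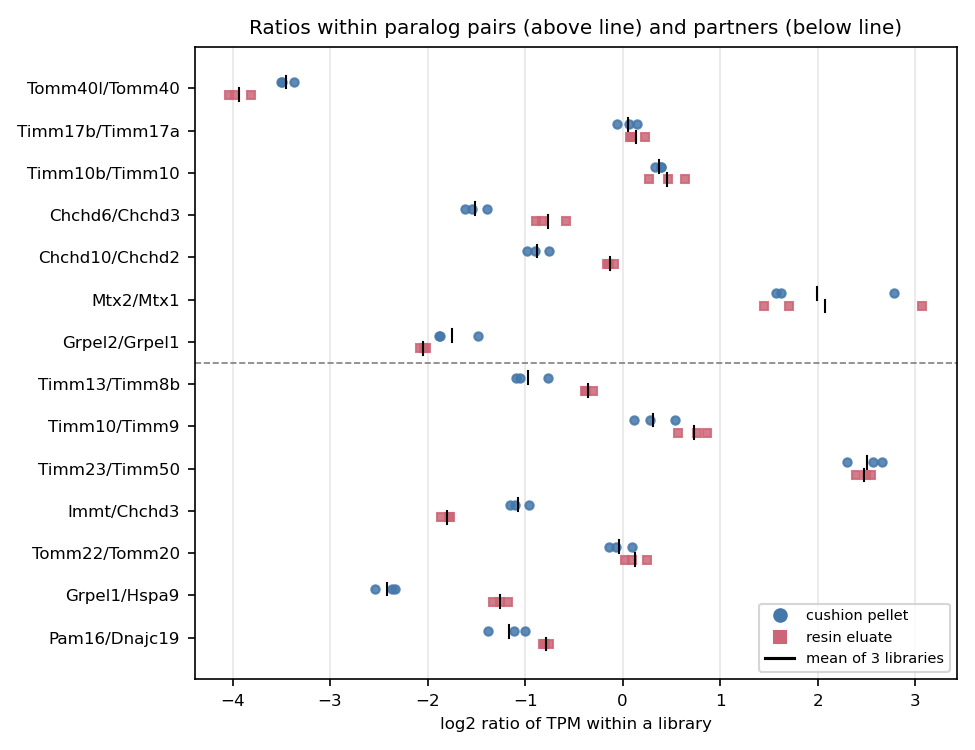
Log2 ratio of TPM within a library for the 7 paralog pairs (above the dashed line) and 7 pairs of partners (below it), with each pellet as a circle, each eluate as a square and a tick at the mean of 3 libraries. Pellets and eluates separate for Tomm40l/Tomm40, Chchd6/Chchd3, Chchd10/Chchd2 and Grpel2/Grpel1 among the paralogs, and for 5 of the partners, widest for Grpel1/Hspa9.

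Coding length and base composition were the properties of the messages that went along with their change. Spearman rank correlations of the log2 change were computed across the 34 messages, including Mtx1, which could not be measured. They were 0.58 with GC content, 0.56 with GC at the third codon position, -0.46 with coding length and -0.30 with transcript length. These describe genes measured in the same 6 libraries, which are not independent replicates, and GC content and coding length were themselves nearly unrelated (-0.0038). Across all tested genes the values were 0.71, 0.64, -0.42 and -0.44, so the 34 messages showed a relation of the general kind. The length of the message outside its coding part went with the change at -0.10 in the 34 messages and -0.31 in all genes with a complete coding sequence. Tomm20, Chchd4, Timm17a, Timm17b and Grpel1 are the members with a transcript over 3000 nt and a coding sequence of up to 700 nt. This group was chosen after the values were seen. All 5 rose, where 24.5% of all tested genes did, and the share among genes of the same lengths was not computed.

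The members can be set beside all tested genes of the same class of coding length. Up to 300 nt, 5 of 8 members rose, where 45.6% of 298 genes did, and the medians were 0.40 and 0.27. From 300 to 600 nt, 9 of 10 rose, where 47.5% of 1465 genes did, with medians of 0.41 and 0.30. From 600 to 1200 nt, 6 of 10 rose, where 34.9% of 3570 genes did, with medians of 0.31 and 0.17. From 1200 to 1800 nt, leaving out Mtx1, neither Samm50 nor Timm44 was called, where 21.1% of 2851 genes rose and 29.6% fell. From 1800 to 2400 nt, all 3 members, Hspa9, Immt and Tomm70a, fell, where 41.5% of 1577 genes did, and the medians were -0.83 and -0.21. No test was made of these differences.

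Among 39 other genes of import, processing and cristae, 16 rose, 11 fell and 12 were not called, with a median of 0.12. Tomm34, a cytosolic cochaperone of import, rose by 0.78 ± 0.076 (adjusted p = 8.29e-07), and Phb2, a prohibitin of the inner membrane, rose by 0.56 ± 0.068 (adjusted p = 6.09e-06). Opa1, the GTPase that fuses inner membranes and narrows cristae junctions, fell by 1.26 ± 0.094 on the log2 scale (adjusted p = 1.13e-07). Hspd1, the matrix chaperonin, fell by 0.81 ± 0.081 (adjusted p = 1.39e-06), while its short cochaperonin Hspe1 rose by 0.43 ± 0.076 (adjusted p = 1.84e-04). Hspd1 has 1722 nt of coding sequence and Hspe1 309 nt. Cox17, a copper chaperone imported by the disulfide relay, rose by 0.23 ± 0.079 (adjusted p = 0.0213), a call lost without pellet 3, eluate 1 or eluate 2 (adjusted p = 0.0803, 0.0761 and 0.0995). Hspe1 and Cox17 had the highest means of the 39 over the 6 libraries, 1763 and 485 TPM, and in the eluates alone Phb2 (537 TPM) stood above Cox17 (514 TPM). Detrended, 10 of the 39 were higher and 8 lower, and Phb2 and Hspe1 were no longer called (0.046 and 0.13).

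The authors' deposited table, which lists genes past its threshold, holds 23 of the 34 messages, 20 with a positive and 3 with a negative log2 fold change. Of the 23 messages called here, 22 are in it with the same sign. The exceptions are Timmdc1, called here and not listed there, and Mtx1, listed there and not called here.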

How the data were processed

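Poly(A) RNA was sequenced in 3 cushion pellets and 3 resin eluates, grouped by sample title. Per the submitters' processing notes, the tools were Salmon 1.10.3, STAR 2.7.11b, DESeq2 1.44.0 and cutadapt 4.7, listed with GRCm39 and no role or order. Per the file headers, each deposited library file holds the authors' Salmon estimated counts and TPM per transcript, and the authors' deposited table holds mean normalized counts as a signal, log2 fold changes with standard errors, a test statistic (a score), and p-values. For settings and annotation release: not given in the sources used here.

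Of 84226 transcripts, 76858 had an identifier in GENCODE M21 (GRCm38, hence used for names, lengths, GC content and the printed sequences only). The other 7368 held 1.63% to 2.35% of counts and were left out. Estimated counts were summed per gene, rounded and compared with edgeR 4.0.16 in R 4.3.3 (robust quasi-likelihood, TMM, default low-count filter, Benjamini-Hochberg over 13231 genes). The SE is the absolute change divided by the root of F. Intervals are from limma 3.58.1 (voom, 95%). Coding length, GC content and length are means over a gene's transcripts weighted by TPM (coding length over those with a complete coding sequence). Depth was 7.84e+06 to 1.04e+07 counts in the pellets and 1.002e+07 to 1.16e+07 in the eluates, and the rarest measurable member, Timm21, had at least 87 counts per library. Near-identical transcripts can exchange reads. Alternatives were DESeq2 1.42.0, limma voom, other scaling and filters, only the most abundant transcript, leaving out mitochondrially encoded genes, TPM with limma (pseudocounts 0.1 and 1), leaving out each library, a replicate block, and removal of GC and length trends (splines, 5 degrees of freedom). The removal of the trend in GC and coding length was added after seeing the data. Paralog ratios used TPM + 0.1 and a two-sided exact permutation test. The main edgeR fit was tested on simulated data, where it recovered 62% of 1.5-fold changes and 78% of 2-fold changes. Tables and plots were made in Python 3.11.15 with numpy 2.4.6, pandas 2.3.3 and matplotlib 3.10.9.

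All 34 members were named by rule. Of the 39 other genes, the rule named those with the smallest p in each direction and the highest levels. The members, lists and alternatives were chosen with earlier results of these data known. The coding sequence of 1 small TIM gene is not reported here.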

Additional observations from a re-analysis of the deposited data

How the results depend on the processing

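Of the 23 called messages, 18 kept direction and call in all 18 alternatives that removed no trend, and 7 (Chchd10, Chchd4, Grpel1, Hspa9, Immt, Timm17a and Timm17b) did so in all 23. Leaving out each library gave 18 to 20 higher and 3 to 5 lower messages, the 5 without pellet 1, which added Timm21 and Mtx2. Over all genes these fits gave 2615 to 3722 higher and 3224 to 4039 lower, and for the 39 other pathway genes 13 to 17 higher and 9 to 12 lower. With limma on log2(TPM + 0.1) and log2(TPM + 1), 1889 and 1912 of all genes were higher, and 10 of the 39 in both. Same-numbered pellets and eluates deviated together at correlations of 0.070, 0.15 and -0.010, and differently numbered ones at -0.18 to 0.11. Not every library correlated best with its own number. The protocol divided each cushion's pellet, but the labels do not say that a number marks the parts, so the numbers were not taken as pairs and pairing was not settled. The replicate block gave 20 higher and 4 lower messages (Mtx2 was added, at -0.21, adjusted p = 0.0424), and 3306 and 3770 of all genes.

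Removing trends moved more values; the cause was not tested. With the GC trend alone removed, 5 of the 39 were lower, and Tomm70a was at 0.081, Timm9 at 0.29, Timm21 at 0.40 and Mtx2 at 0.39. With the length trend alone removed, 14 messages were higher and 6 lower, against 3498 and 2972 of all 13231 genes. Dnajc19 was at -0.22 there and at 0.46 with the GC trend alone removed. With both removed, 2095 of all genes were lower and 10 of the 39 higher, and Tomm40 was at -0.095, Tomm70a at 0.29, Timm50 at -0.13, Pam16 at -0.042, Mtx2 at 0.34 and Chchd2 at -0.13. With both removed and the replicate block, 5 messages and 2087 of all genes were lower. The 5 were Hspa9, Immt, Timm44, Chchd2 and Mtx1, and the value of Mtx1 carries no finding. In that fit Tomm40 was at -0.095, Tomm70a at 0.29, Timm50 at -0.13, Pam16 at -0.042, Mtx2 at 0.34 and Chchd2 at -0.13. With the trends in GC and coding length removed, an alternative chosen after seeing the data, 10 messages were higher and 7 lower, 5 of the 39 were higher, and 1946 of 12189 genes were higher and 1745 lower. There, Tomm40 was at -0.12, Tomm70a at 0.20, Timm8b at -0.27, Timm10b at -0.074, Timm13 at -0.091, Timm50 at -0.12, Pam16 at -0.22 and Chchd2 at -0.21. Tomm20 was at 0.15, Chchd4 at 0.52, Timm17a at 0.76, Timm17b at 0.21 and Grpel1 at 0.36, all still called higher. Among measurable members depth limits Timm21 most, with 87 counts in its lowest library. The filter of at least 1 CPM in 3 libraries kept the genes of the default filter.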

Other observations

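The level of a gene could rest on 1 of its transcripts or on several. Timm13 was split between a transcript of 1225 nt (120 ± 20.7 TPM in the pellets and 186 ± 7.43 TPM in the eluates, SD, n = 3) and one of 542 nt (72.6 ± 4.12 and 96.8 ± 5.89 TPM), and both were higher in every eluate than in every pellet. The longer one took 61.2% and 64.1% of the gene's TPM. Chchd10 came mainly from a transcript of 939 nt, which took 90.5% of its TPM in the pellets and 92.9% in the eluates. For Tomm22, a transcript of 783 nt took 60.5% of the gene's TPM in both groups. For Timm22, a transcript of 746 nt was at 16.5 ± 5.26 TPM in the pellets and 23.2 ± 2.72 TPM in the eluates, and one of 2817 nt at 13.8 ± 2.38 and 16.3 ± 0.396 TPM. Salmon estimates the split between transcripts that share most of their sequence, so these shares are less certain than the sums, and no test of them was made.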
